A study of Mus musculus with 5 samples.

Results

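Endosomal Toll-like receptors and proteins that serve them were measured in mouse melanomas as a set of 10 genes: Tlr3, Tlr7, Tlr8, Tlr9, Tlr13, Unc93b1, Pld3, Pld4, Myd88 and Irf5. The genes were selected by their known role in nucleic acid sensing, with earlier results of these data already seen, and stand among 19505 named genes on 22203 probe sets, called probes here. The probe with the highest mean signal was to represent each gene, but every gene had only 1 probe, so measured values chose nothing among probes. The values and adjusted p-values given for these genes are therefore descriptions of a set picked with results in view.

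RNA came from whole subcutaneous tumours of B16.F10 luc+GFP+ cells, a melanoma line of C57BL/6 mice marked with luciferase and green fluorescent protein, and was hybridised to Affymetrix Clariom S arrays, 1 array per tumour. In 3 mice the treatment was anti-PD-1 with oral RG7112, an inhibitor of the binding between MDM2 and p53, and in 2 mice it was anti-PD-1 with oral vehicle, which was corn oil with 5% DMSO. All 5 mice were C57BL/6 wildtype animals aged 10 weeks that received anti-PD-1, an antibody against an inhibitory receptor of T cells, into the peritoneum on days 1, 4 and 8. The oral doses came every 2 days over 6 days, and tumours were taken on day 13. The hosts kept their own immune system and 1 tumour line was used, so every comparison below is between tumours that all saw anti-PD-1, with no tumour free of it and no healthy skin. The tumours carry their labelled numbers, RG7112 tumours 1, 2 and 3 and vehicle tumours 3 and 4.

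Endosomal Toll-like receptors bind nucleic acids that a cell has taken up or that have been released inside its endosomes. Newly made receptors are folded in the endoplasmic reticulum, carried to endosomes by the chaperone Unc93b1 and cut there by proteases before they can signal, while endosomal nucleases trim or destroy their ligands. All of these receptors except Tlr3 pass the signal to the adaptor Myd88 and on to transcription factors such as Irf5, which switch on cytokine genes, and in tumours the pathway is best known from macrophages, dendritic cells and B cells.

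Of the 10 genes, 5 rose in the RG7112 tumours, namely Pld4, Tlr7, Tlr8, Tlr13 and Myd88, and 0 fell. A gene is said here to have risen or fallen when the limma fit across all probes gave a Benjamini-Hochberg adjusted p under 0.05, and 1.42% of all probes were higher by that rule. In 9 of the 10 genes every RG7112 tumour lay above both vehicle tumours, a pattern found in 10.8% of all probes, with Pld3 as the exception. The median log2 difference was 0.94 over the 10 genes and -0.03 over all probes. The mean log2 signal over the 10 genes was 7.45, 7.31 and 7.14 in RG7112 tumours 1, 2 and 3, against 6.30 and 6.19 in vehicle tumours 3 and 4. In these bulk samples, a change in the number of cells of a type and a change in RNA per cell cannot be told apart. This holds for every value below.

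**Figure D1:**
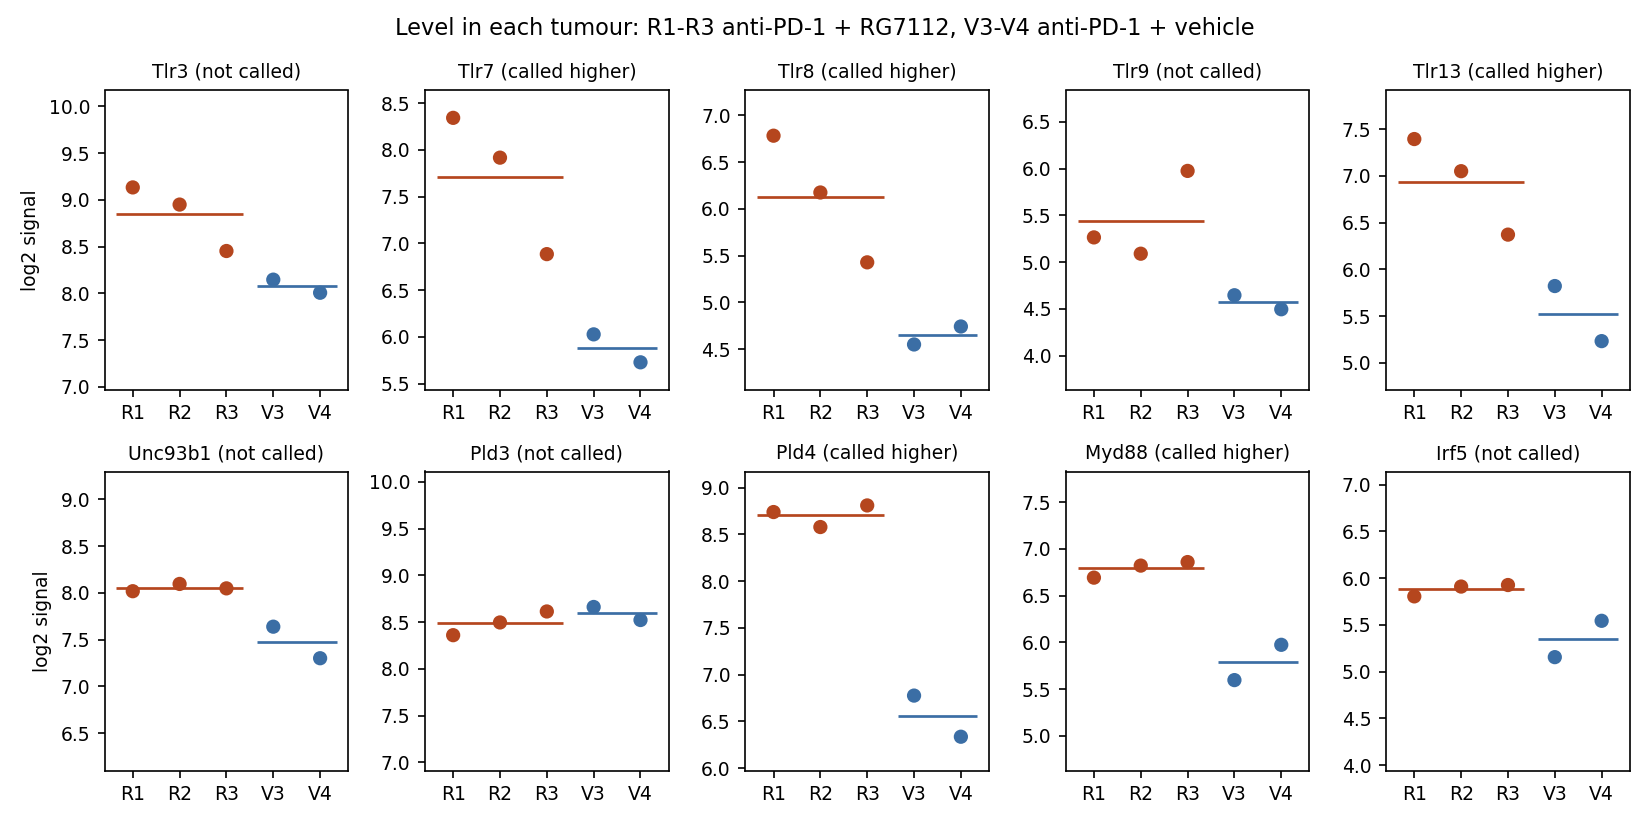
Log2 signal of each of the 10 genes in every tumour, with RG7112 tumours left of vehicle tumours, points for single tumours and lines for group means. In 9 of the 10 genes the RG7112 points lie above both vehicle points, and the Pld3 points mix.

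Tlr7, a receptor for single-stranded RNA, had log2 signals of 8.34, 7.92 and 6.88 in RG7112 tumours 1, 2 and 3, against 6.03 and 5.73 in vehicle tumours 3 and 4. The groups did not overlap, and RG7112 tumour 3 lay closer to the vehicle tumours than the other RG7112 tumours did. The group means were 7.71 ± 0.75 with RG7112 (SD, n = 3) and 5.88 ± 0.21 with vehicle (SD, n = 2), a log2 difference of 1.84 ± 0.33 (SE), or 3.57-fold (limma adjusted p = 0.0180). The adjusted p was 0.0706 without RG7112 tumour 2, 0.171 without vehicle tumour 3 and 0.308 without vehicle tumour 4, and the difference was 1.52 to 2.25 when each of the 5 tumours was left out in turn.

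Tlr8, whose human counterpart senses breakdown products of RNA, had log2 signals of 6.78, 6.18 and 5.43 in RG7112 tumours 1, 2 and 3, against 4.55 and 4.74 in vehicle tumours 3 and 4. The order of the RG7112 tumours was that of Tlr7, again without overlap between the groups. The log2 difference was 1.48 ± 0.31 (SE), or 2.80-fold (limma adjusted p = 0.0398). The adjusted p was 0.112 without RG7112 tumour 2, 0.466 without vehicle tumour 3 and 0.302 without vehicle tumour 4, with differences of 1.16 to 1.83 over the 5 fits. With the level of melanocyte markers as a covariate it was 0.110.

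Tlr13, a mouse receptor for bacterial ribosomal RNA, had log2 signals of 7.39, 7.05 and 6.37 in RG7112 tumours 1, 2 and 3, against 5.82 and 5.23 in vehicle tumours 3 and 4. RG7112 tumour 1 was again the highest and tumour 3 the lowest of its group, and the lowest RG7112 tumour stood 0.55 above the higher vehicle tumour. The log2 difference was 1.41 ± 0.28 (SE), or 2.66-fold (limma adjusted p = 0.0299). This call was kept only without RG7112 tumour 3, where the difference was 1.70, and the adjusted p ran from 0.0656 to 0.435 without each of the other tumours.

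Tlr7, Tlr8 and Tlr13 lie on chromosome X, which held 800 named probes, of which 5 rose (0.625%), these 3 receptors among them. The start regions of Tlr8 and Tlr13 are shown because both rose, with the same order of tumours within the RG7112 group. RefSeq windows of GRCm38.p6 from 250 bases before to 50 after the gene's start were matched for 8 of the 10 genes, all but Tlr7 and Unc93b1. Each window was searched on both strands for the interferon element ISRE (GAAANNGAAA), the STAT element GAS (TTCNNNGAA), a PU.1 site (GAGGAAGT) and the p53 response element, and matches are in capitals. The Tlr8 window is chrX:167264280-167264579 on the minus strand and the Tlr13 window is chrX:106143025-106143324 on the plus strand.
Tlr8: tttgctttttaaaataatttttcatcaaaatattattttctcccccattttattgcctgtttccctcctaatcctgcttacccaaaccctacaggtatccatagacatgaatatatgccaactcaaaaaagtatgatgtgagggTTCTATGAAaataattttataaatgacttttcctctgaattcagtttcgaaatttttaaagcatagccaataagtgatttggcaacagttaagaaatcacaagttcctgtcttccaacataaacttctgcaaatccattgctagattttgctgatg
Tlr13: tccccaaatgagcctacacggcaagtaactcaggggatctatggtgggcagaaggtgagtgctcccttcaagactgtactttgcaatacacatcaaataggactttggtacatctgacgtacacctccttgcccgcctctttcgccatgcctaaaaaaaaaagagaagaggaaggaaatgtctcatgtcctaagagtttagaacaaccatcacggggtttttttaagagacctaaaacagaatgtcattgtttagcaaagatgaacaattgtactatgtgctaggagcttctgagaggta
The Tlr8 window held 1 GAS match, TTCTATGAA, at positions -106 to -98 relative to the start, and GAS was found in 8.30% of all 32851 windows. The Tlr13 window held no match to any of the searched motifs. A match is a run of letters and says nothing about whether a factor binds there, and the lack of one says only that these letters are not in this window.

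Tlr3, the receptor for long RNA duplexes, had log2 signals of 9.13, 8.95 and 8.45 in RG7112 tumours 1, 2 and 3, against 8.15 and 8.01 in vehicle tumours 3 and 4. The tumours fell in the same order within the RG7112 group as for Tlr7, and the groups did not overlap, though RG7112 tumour 3 was only 0.31 above vehicle tumour 3. The log2 difference of 0.77 ± 0.21 (SE; 95% interval 0.32 to 1.22) did not pass the threshold (limma adjusted p = 0.145). Without RG7112 tumour 3 the difference was 0.96 and the adjusted p 0.0335.

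Tlr9, the receptor for unmethylated CpG DNA, had log2 signals of 5.27, 5.09 and 5.98 in RG7112 tumours 1, 2 and 3, against 4.65 and 4.50 in vehicle tumours 3 and 4. It differed in order from the other 4 receptors, since RG7112 tumour 3 was the highest and not the lowest of its group, and the groups did not overlap. The log2 difference was 0.87 ± 0.24 (SE; 95% interval 0.35 to 1.40), with a limma adjusted p of 0.160, and it missed the threshold whichever tumour was left out.

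Unc93b1, the chaperone that carries these receptors to endosomes, had log2 signals of 8.02, 8.10 and 8.05 in RG7112 tumours 1, 2 and 3, against 7.64 and 7.30 in vehicle tumours 3 and 4. The RG7112 tumours lay within 0.0777 of each other, the narrowest range among the 10 genes, and all stood above both vehicle tumours. The log2 difference was 0.58 ± 0.16 (SE; 95% interval 0.22 to 0.95) and did not pass the threshold (limma adjusted p = 0.176).

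Pld4 and Pld3 are related exonucleases of endosomes and lysosomes that degrade single-stranded nucleic acid from its 5′ end and so limit the ligands of Tlr9 and Tlr7. Pld4 had log2 signals of 8.74, 8.58 and 8.81 in RG7112 tumours 1, 2 and 3, against 6.77 and 6.33 in vehicle tumours 3 and 4. The lowest RG7112 tumour stood 1.80 above the higher vehicle tumour, the widest gap among the 10 genes, and the RG7112 tumours were close together. The means were 8.71 ± 0.12 with RG7112 (SD, n = 3) and 6.55 ± 0.31 with vehicle (SD, n = 2), a log2 difference of 2.15 ± 0.18 (SE), or 4.45-fold (limma adjusted p = 0.000303). Pld4 was called without each of the 5 tumours in turn, at differences of 1.93 to 2.37, and was the only one of the 10 genes for which this held.

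Pld3 had log2 signals of 8.36, 8.50 and 8.61 in RG7112 tumours 1, 2 and 3, against 8.66 and 8.52 in vehicle tumours 3 and 4. The groups overlapped. The log2 difference was -0.10 ± 0.16 (SE; 95% interval -0.45 to 0.25; limma adjusted p = 0.927), so a change of up to 0.45 downward or 0.25 upward lies within its interval. Taken within each tumour, the log2 difference of Pld3 trailed that of Pld4 (-2.26 ± 0.17 SE; 95% interval -2.63 to -1.88).

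The start regions of this pair are shown because the related genes gave different readouts. The Pld4 window is chr12:112760405-112760704 on the plus strand and the Pld3 window is chr7:27553169-27553468 on the minus strand, both in GRCm38.p6.
Pld4: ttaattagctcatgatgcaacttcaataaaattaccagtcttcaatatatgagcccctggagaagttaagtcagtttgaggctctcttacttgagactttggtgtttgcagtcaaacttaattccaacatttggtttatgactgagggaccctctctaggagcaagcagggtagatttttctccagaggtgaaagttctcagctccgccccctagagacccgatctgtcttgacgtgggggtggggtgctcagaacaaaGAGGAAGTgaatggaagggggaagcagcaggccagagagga
Pld3: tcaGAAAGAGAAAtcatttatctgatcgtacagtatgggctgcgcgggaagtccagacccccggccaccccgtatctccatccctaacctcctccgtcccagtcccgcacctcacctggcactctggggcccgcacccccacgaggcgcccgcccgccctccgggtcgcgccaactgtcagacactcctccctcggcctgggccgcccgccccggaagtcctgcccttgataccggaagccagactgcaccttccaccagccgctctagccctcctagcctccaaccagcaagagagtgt
The Pld4 window held 1 PU.1 match, GAGGAAGT, 9 to 16 bases after the start, and PU.1, a transcription factor of myeloid and B cells, had a match in 3.20% of all windows. The Pld3 window held no PU.1 match but 1 ISRE match, GAAAGAGAAA, at positions -247 to -238, and ISRE was found in 3.44% of all windows. In the 8 matched windows a second PU.1 match lay in that of Tlr9, whose gene did not pass the threshold. No p53 element was found in the 8 windows, either as a full element with a spacer of up to 13 bases (0.0731% of all windows) or as a single decamer (8.36%).

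Myd88, the adaptor of all the receptors here except Tlr3, had log2 signals of 6.69, 6.82 and 6.86 in RG7112 tumours 1, 2 and 3, against 5.60 and 5.97 in vehicle tumours 3 and 4. The RG7112 tumours lay within 0.167 of each other and all above both vehicle tumours. The means were 6.79 ± 0.09 with RG7112 (SD, n = 3) and 5.78 ± 0.27 with vehicle (SD, n = 2), a log2 difference of 1.01 ± 0.17 (SE), or 2.01-fold (limma adjusted p = 0.0119). The adjusted p was 0.0529 without RG7112 tumour 3, 0.246 without vehicle tumour 3 and 0.0730 without vehicle tumour 4, at differences of 0.97, 0.82 and 1.19. With the level of melanocyte markers as a covariate the difference was 0.75 and the adjusted p 0.479.

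The Myd88 start region is shown because ISRE and GAS letters overlap in it. The window is chr9:119339969-119340268 on the minus strand of GRCm38.p6.
Myd88: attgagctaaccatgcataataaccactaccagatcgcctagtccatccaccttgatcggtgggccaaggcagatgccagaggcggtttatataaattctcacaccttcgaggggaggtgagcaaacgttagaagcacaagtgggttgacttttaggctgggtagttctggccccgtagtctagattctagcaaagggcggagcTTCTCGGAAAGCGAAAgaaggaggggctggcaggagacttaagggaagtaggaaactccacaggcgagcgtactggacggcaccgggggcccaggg
The GAS match TTCTCGGAA lay at positions -46 to -38 relative to the start and the ISRE match GAAAGCGAAA at -40 to -31, so that the capitals form 1 run.

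Irf5, a transcription factor that acts downstream of Myd88, had log2 signals of 5.80, 5.91 and 5.93 in RG7112 tumours 1, 2 and 3, against 5.15 and 5.54 in vehicle tumours 3 and 4. The groups did not overlap, with the lowest RG7112 tumour close to vehicle tumour 4. The log2 difference was 0.53 ± 0.17 (SE; 95% interval 0.16 to 0.91) and did not pass the threshold (limma adjusted p = 0.273). It was 0.34 without vehicle tumour 3 and 0.73 without vehicle tumour 4.

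**Figure D2:**
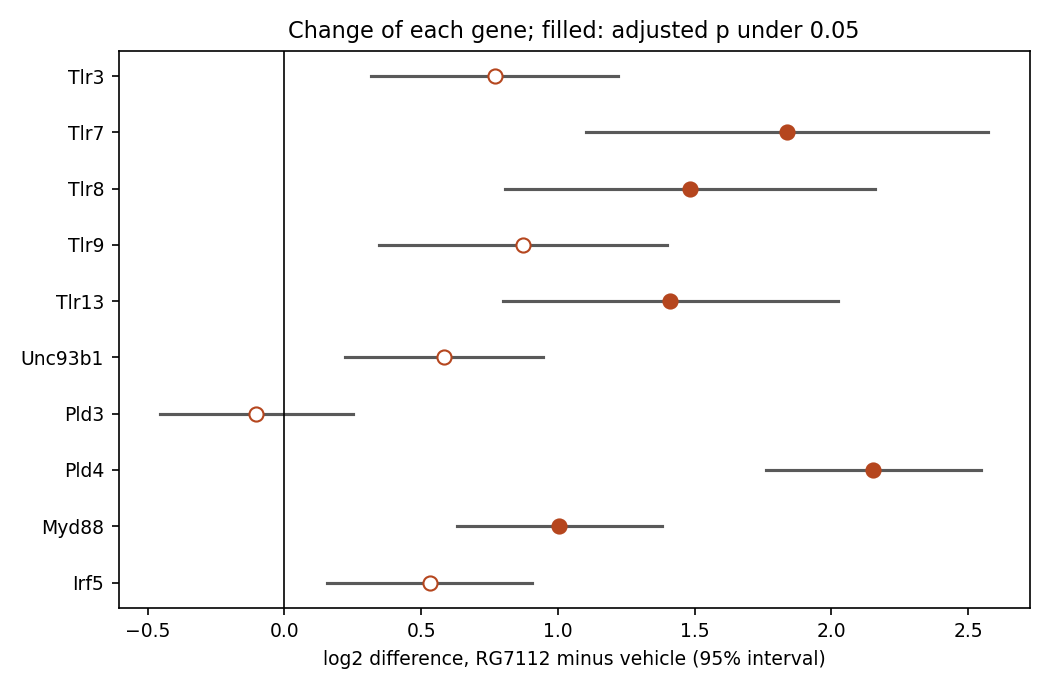
Log2 difference (RG7112 minus vehicle) of each gene with its 95% interval from limma, filled points marking adjusted p under 0.05. Pld4 has the largest difference, at 2.15, and the interval of Pld3 spans 0.

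Changes were set against each other within tumours over the 45 pairs of the 10 genes. By limma with Benjamini-Hochberg adjustment over the 45 pairs, 25 pairs differed in their change, which describes genes picked with results in view. The variance prior was that of single probes. A difference between probes can vary more, so the intervals of pairs may be too narrow. On the log2 scale Tlr3 trailed Tlr7 (-1.07, 95% interval -1.55 to -0.59). Among the receptors on chromosome X the pairs were not called. Tlr7 exceeded Tlr8 by 0.35 (95% interval -0.06 to 0.77) and Tlr13 by 0.43 (0.02 to 0.83), and Tlr8 exceeded Tlr13 by 0.07 (-0.42 to 0.57). With the prior variance doubled, the interval of Tlr7 against Tlr13 was -0.10 to 0.95. Tlr7 exceeded Tlr9 by 0.97, with a wide interval of -0.11 to 2.04, and was not called. The adaptor Myd88 exceeded the transcription factor Irf5 by 0.47 (0.14 to 0.80), a call that was lost with the prior variance doubled (adjusted p = 0.0846), and the chaperone Unc93b1 trailed Pld4 (-1.57, interval -1.93 to -1.21).

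The profiles over the 5 tumours were set against each other by a distance that counts the size of a change as well as its pattern. As the root-mean-square difference between profiles with each gene's own mean removed, Tlr7 lay 0.250 from Tlr8 and 0.271 from Tlr13, and Tlr8 lay 0.273 from Tlr13. Tlr9 lay 0.888 from Tlr7, and 0.325 from Myd88, its nearest. The nearest gene to Myd88 within the set was Irf5 at 0.233. For Pld4, which had the largest difference of the set, the closest was Tlr13 at 0.521.

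**Figure D3:**
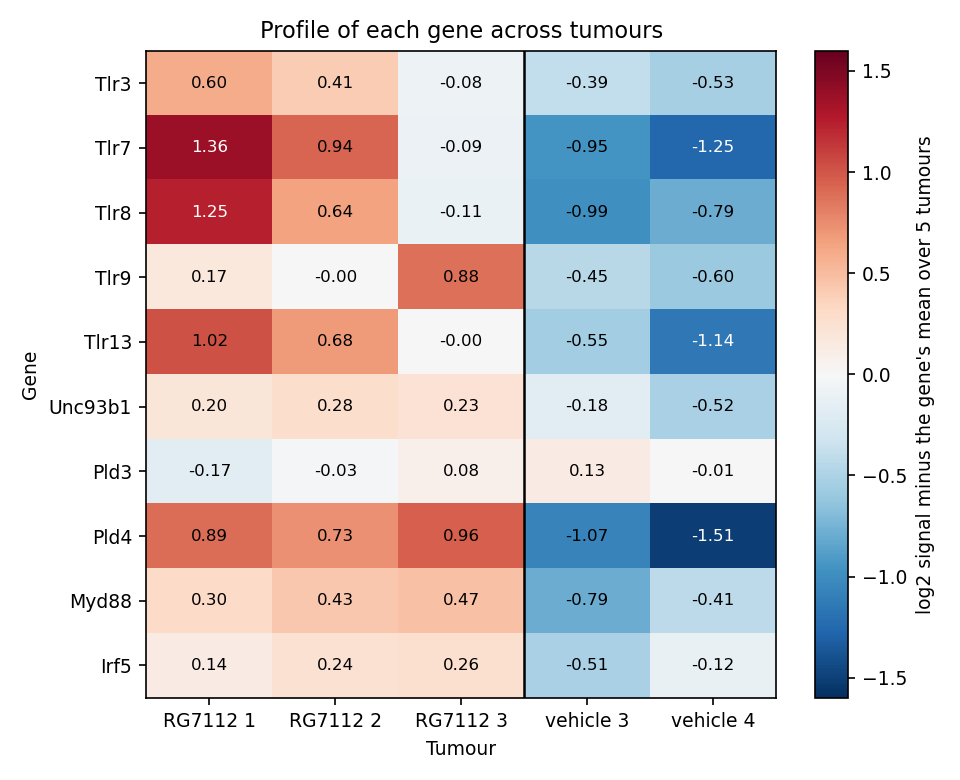
Log2 signal of each gene minus its mean over the 5 tumours, with RG7112 tumours 1 to 3 left of vehicle tumours 3 and 4, red above and blue below the gene's mean. Tlr7, Tlr8 and Tlr13 are highest in RG7112 tumour 1, Tlr9 in RG7112 tumour 3, and Pld4 is even across the RG7112 tumours.

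Among all other named genes, those closest to the mean profile of the 7 genes with a range of at least 1 (Tlr3, Tlr7, Tlr8, Tlr9, Tlr13, Pld4 and Myd88) were sought by the same distance. They were Ctsh, a lysosomal protease (0.0543), Tmem106a (0.0657), Cd84, a leukocyte surface receptor (0.0787), Ptpn22, a leukocyte phosphatase (0.0845), Tyrobp, an adaptor of myeloid and NK cell receptors (0.0858), and Parp9 (0.0866). Their log2 differences of 1.26 to 1.46 are fixed by the choice of genes for likeness and are no further evidence of a rise. For single genes, the closest were Klrb1b (0.158) and Ms4a7 (0.162) for Tlr7, Igsf6 (0.197) and Il7r (0.215) for Tlr8, and Lilr4b (0.0652) and Cd274 (0.125), the gene of PD-L1, for Tlr13. Pld4 was closest to H2-DMa (0.0530), which acts in peptide loading of MHC class II, and to Slamf9 (0.0944), a surface receptor of the SLAM family. Their log2 differences, likewise fixed by the choice, were 2.10 for H2-DMa and 2.15 for Slamf9. Myd88 was closest to Rnf19b (0.0355) and H2-Q4 (0.0587). Tlr3 was closest to Zgrf1 (0.0655) and Htra4 (0.0698) and Tlr9 to C1qtnf3 (0.0519) and Hcar1 (0.117).

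The endosomal proteins around the receptors were taken as a list of 20 genes, of which 17 were measured. Proteases, folding factors, nucleases, transporters and the further receptors Tlr11 and Tlr12 were among them. In this list 3 rose (17.6%, against 1.42% of all probes), 0 fell and 14 did not pass the threshold. The median log2 difference was 0.14, against -0.03 over all probes. Ctss, cathepsin S, a lysosomal protease, had log2 signals of 10.19, 10.19 and 10.10 in RG7112 tumours 1, 2 and 3, against 9.00 and 8.83 in vehicle tumours 3 and 4, a difference of 1.25 ± 0.15 (SE; limma adjusted p = 0.00185). The RG7112 tumours were nearly equal. Dnase1l3, a secreted nuclease of chromatin, rose by 1.25 ± 0.20 (adjusted p = 0.00867) at a low signal, 4.59, 4.43 and 5.02 in the RG7112 tumours against 3.58 and 3.27 in the vehicle tumours. Lgmn, the endosomal protease legumain, rose by 0.78 ± 0.16 (adjusted p = 0.0376), but did not pass once any 1 of the 5 tumours was dropped. Ctsb, cathepsin B, had a difference of 0.52 ± 0.15 (adjusted p = 0.210). Of the folding factors, Cnpy3 had -0.43 ± 0.17 (adjusted p = 0.471) and Hsp90b1 -0.02 ± 0.15, both picked out after their values were seen. The receptors Tlr11 (0.14 ± 0.17, adjusted p = 0.889) and Tlr12 (0.17 ± 0.17, 0.868) did not pass, at low signals. They too were picked out after their values were seen.

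A list of further signalling genes behind the receptors, which leaves out Myd88 and Irf5, gave no call. Of 30 listed genes 25 were measured, 0 rose and 0 fell, with a median difference of 0.04. With 1.42% of all probes higher, 0 calls in a list of this size do not set it apart from all probes. Irf7, a transcription factor of interferon genes, had log2 signals of 7.15, 6.44 and 7.48 in RG7112 tumours 1, 2 and 3, against 5.75 and 5.99 in vehicle tumours 3 and 4. The groups did not overlap, and the difference of 1.15 ± 0.26 (SE; limma adjusted p = 0.0638) did not pass the threshold. It passed without RG7112 tumour 2 (1.44, adjusted p = 0.00668) and with an intensity trend in the variance prior (0.0330). Btk, a tyrosine kinase, had 0.98 ± 0.24 (adjusted p = 0.106), Irak3, an inhibitor of this signalling, 1.00 ± 0.25 (0.117), and the kinase Tbk1 0.44 ± 0.15 (0.333). Irak3 had 0.60 without vehicle tumour 3. Ticam1, the adaptor that Tlr3 uses, had -0.10 ± 0.18 (adjusted p = 0.933) and was picked out after its value was seen.

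Genes that this pathway is known to switch on, cytokine and chemokine genes among them, formed a list of 22, of which 21 were measured. Here 4 rose (19.0%, against 1.42% of all probes), 0 fell and 17 did not pass the threshold, with a median difference of 0.50. Tnf had log2 signals of 5.48, 5.76 and 5.45 in RG7112 tumours 1, 2 and 3, against 4.22 and 4.04 in vehicle tumours 3 and 4, a difference of 1.43 ± 0.17 (SE; limma adjusted p = 0.00126). The chemokine Ccl3 rose by 1.78 ± 0.25 (adjusted p = 0.00361), and the interferon-inducible chemokines Cxcl9 by 1.74 ± 0.22 (0.00220) and Cxcl10 by 1.65 ± 0.21 (0.00193). Each of these 4 calls was lost without vehicle tumour 4, at adjusted p-values of 0.0598, 0.0907, 0.0816 and 0.0751. Ifnb1 had 0.20 ± 0.15 and Il6 0.08 ± 0.18, picked out after their values were seen.

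Sensors outside the endosome were set beside these genes. Among 9 surface Toll-like receptors and partners, all measured, the median difference was 0.51. Of these, 3 rose (33.3%, against 1.42% of all probes) and 0 fell. They were Cd180, a Toll-like receptor relative that restrains Tlr4 (2.23 ± 0.22, limma adjusted p = 0.000524), Ly86, its partner (1.80 ± 0.19, 0.000703), and Tlr1, a partner of Tlr2 for lipopeptides (1.24 ± 0.25, 0.0357). Tlr2 had 0.57 ± 0.19 (0.302), or 0.32 without vehicle tumour 4, and did not pass. Among 13 genes of cytosolic RNA sensing, 12 were measured, 1 rose (8.33%) and 0 fell, with a median of 0.56. The one that rose was Zbp1, a sensor of Z-form nucleic acid (1.28 ± 0.17, adjusted p = 0.00281), while Ddx58, which encodes RIG-I, had 0.91 ± 0.20 (0.0559), Ifih1, which encodes MDA5, 0.88 ± 0.19 (0.0559) and Trim25 0.78 ± 0.17 (0.0590). Without vehicle tumour 3, Ddx58 had 1.25 (0.0365) and Ifih1 1.19 (0.0430), and without vehicle tumour 4 they had 0.58 (0.548) and 0.57 (0.549). Over 17 alternatives Ddx58 was called in 6 and Ifih1 in 4. The difference between these lists and the 10 genes was not tested. Without vehicle tumour 4, only 3 of the 173 measured genes of all other lists, marker lists included, were called, namely Cd180, Ly86 and the macrophage marker Aif1. These 3 were called without each tumour in turn. The calls of Tlr1 (adjusted p = 0.336 and 0.353), Zbp1 (0.0570 and 0.0816) and Dnase1l3 (0.0620 and 0.204) were lost without vehicle tumour 3 or 4, that of Tlr1 also without RG7112 tumour 3 (0.138), and that of Ctss without vehicle tumour 4 (0.0731).

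**Figure D4:**
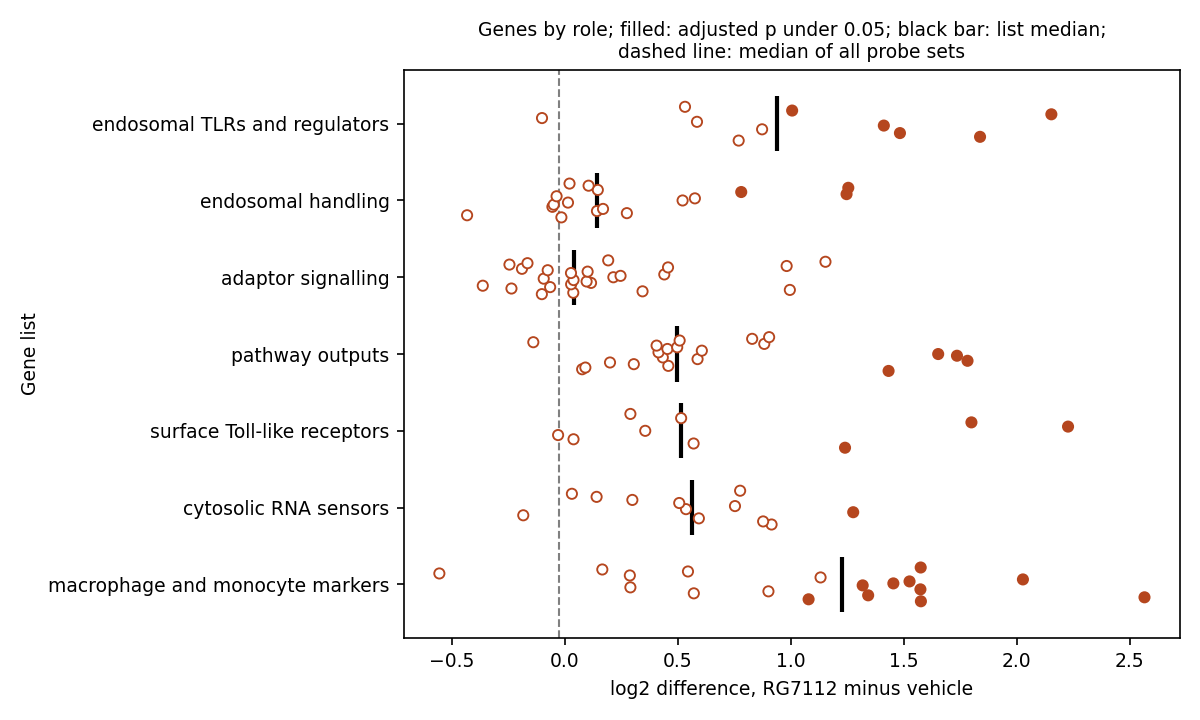
Log2 difference (RG7112 minus vehicle) of every measured gene in each list of the pathway and of other sensors, with filled points for adjusted p under 0.05 and a bar at the list's median. The 10 endosomal receptor genes have a median of 0.94 and the adaptor signalling genes 0.04.

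Markers of cell types that express these receptors were measured as whole lists. Of 20 macrophage and monocyte markers 18 were measured and 10 rose (55.6%, against 1.42% of all probes), 0 fell and 8 did not pass. Their mean log2 signal was 8.04, 7.67 and 7.77 in RG7112 tumours 1, 2 and 3, against 6.89 and 6.60 in vehicle tumours 3 and 4, a difference of 1.08, and none of the 18 was dim. The members that moved most included Aif1 (2.57 ± 0.20, limma adjusted p = 0.000303), Ly6c2 (2.03 ± 0.26, 0.00208) and Adgre1, which encodes a surface protein of macrophages (1.58 ± 0.18, 0.00127), the last 2 of which were not called without vehicle tumour 4 (0.0666 and 0.0574). Of the 8 that did not pass, Cd163, a scavenger receptor, lay at 5.32, 4.99 and 4.95 in RG7112 tumours 1, 2 and 3, against 5.72 and 5.57 in vehicle tumours 3 and 4. Every RG7112 tumour was below both vehicle tumours, with a difference of -0.56 ± 0.17 (adjusted p = 0.240). Cd14 and Mrc1 each had 0.29 and Apoe 0.17, all 4 picked out after their values were seen. The 10 markers that rose share that direction with Pld4, Tlr7, Tlr8, Tlr13 and Myd88 by the rule that picked them. Within the RG7112 group the order of tumours differed among the 10 markers. To cover all 10, Csf1r, Itgam, C1qa, Fcgr1, Spi1, C1qb and C1qc were picked out after their values were seen. Aif1, Adgre1 and Csf1r were highest in tumour 3, and Itgam and C1qa in tumour 2. Ly6c2, Fcgr1, Spi1, C1qb and C1qc were highest in tumour 1, as were Tlr7, Tlr8 and Tlr13. The part of these markers in the results of those genes was not tested.

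Markers of the other cell types known for these receptors did not pass the threshold. Those with the smallest unadjusted p in their lists were Klk1 (0.41), Spib (-0.29) and Pacsin1 (0.21) for plasmacytoid dendritic cells, and Xcr1 (0.46), Cadm1 (0.26) and Tlr11 (0.14) for type 1 conventional dendritic cells, as log2 differences. For B cells they were Cd22 (0.37), Blk (-0.40) and Pax5 (-0.22), for neutrophils Csf3r (0.62), Camp (-0.36) and Ngp (-0.28), and for T cells Cd3e (0.75), Cd3g (0.52) and Icos (0.60). For plasmacytoid dendritic cells, known for Tlr7 and Tlr9, 0 of 9 measured markers were called, and the mean log2 signal was 5.58, 5.68 and 5.61 in RG7112 tumours 1, 2 and 3, against 5.59 and 5.57 in vehicle tumours 3 and 4. Their defining marker Siglech, picked out after its value was seen, lay at 3.81, 4.36 and 4.06 with RG7112, against 4.18 and 4.14 with vehicle, below the dim limit of 4.99, the 40th percentile of mean signals. For type 1 conventional dendritic cells, known for Tlr3, 0 of 9 were called, with 4.92, 5.08 and 5.15 with RG7112 against 4.92 and 5.00 with vehicle, and 5 of the 9 were dim. For B cells, known for Tlr7 and Tlr9, 0 of 8 were called, with 3.86, 4.24 and 4.39 with RG7112 against 4.27 and 4.26 with vehicle, and all 8 were dim, the defining markers Ms4a1 and Cd79a among them, also picked out after their values were seen. Neutrophil markers gave 0 of 10 called, with 8 of the 10 dim. T cell markers gave 0 of 9, with 5 of the 9 dim and means of 4.97, 5.05 and 5.22 with RG7112 against 4.85 and 4.69 with vehicle. With 1.42% of all probes higher, 0 calls in lists this short do not set them apart from all probes. Whether these cell types changed in number was not tested.

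Melanocyte lineage markers, which check the labelled tissue, were bright in every tumour, with mean log2 signals of 11.5, 11.4 and 11.5 in RG7112 tumours 1, 2 and 3, against 11.3 and 11.4 in vehicle tumours 3 and 4, and 0 of 10 were called. Gpr143 (0.37), Mlana (0.24) and Trpm1 (0.23) had the smallest unadjusted p. Of 9 fibroblast and 9 keratinocyte markers measured, 0 were called in each list, led by Postn (0.74), Thy1 (0.56) and Fap (0.45), and by Krt14 (-0.60), Krt1 (-0.37) and Lor (-0.25). In the keratinocyte list 8 of the 9 were dim, and in the fibroblast list 2. Here too, 0 calls in short lists do not set them apart from all probes, of which 1.42% were higher. The 5 arrays had medians of 5.76 to 5.81 and correlated across genes with Pearson's r of 0.983 to 0.992, and no pair of arrays was identical. Signal differences between probes of different genes were not read as differences in level.

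**Figure D5:**
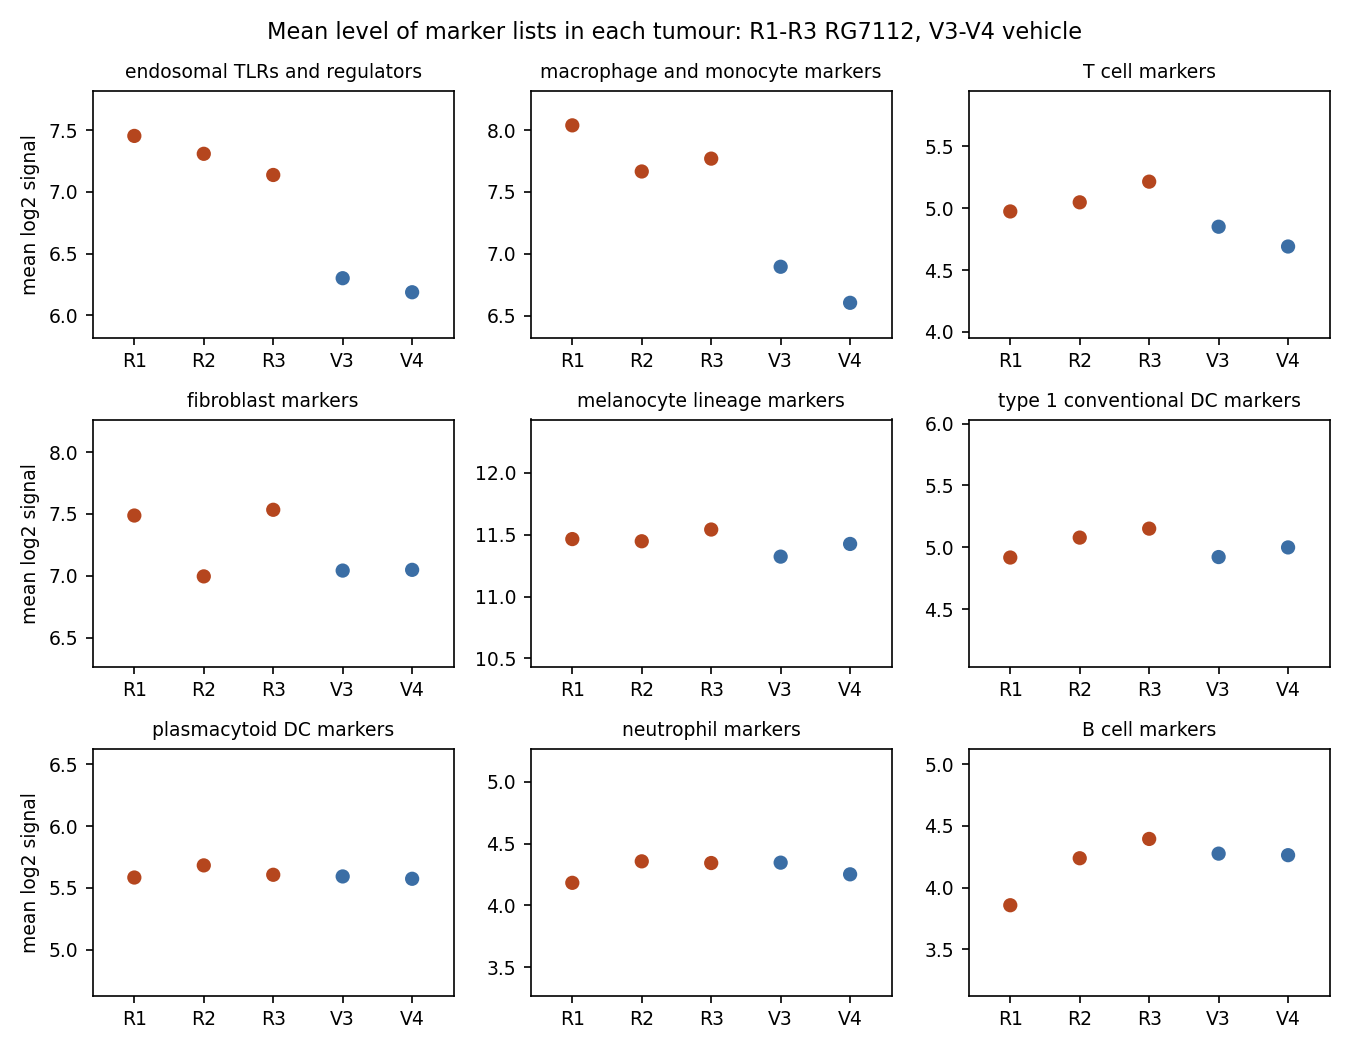
Mean log2 signal of the 10 genes (first panel) and of cell type marker lists in every tumour, RG7112 tumours left of vehicle tumours. Keratinocyte markers are not drawn. Macrophage and monocyte markers lie at 7.67 to 8.04 with RG7112, against 6.60 and 6.89 with vehicle, and the other marker lists vary less between the groups.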

How the data were processed

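Each array's deposited values are log2 signals, made with the oligo package and RMA per the submitters' processing notes, with versions not given in the sources used here. No per-sample column was left out (0 unused). Each tumour is 1 mouse, and the small number of arrays limits the precision. Batches of arrays were not analysed here. The platform annotation named 1 gene for 19572 of 22203 probes and none for 2631, and all 19572 identifiers matched RefSeq.

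RG7112 minus vehicle was fitted to the deposited log2 values in R 4.3.3 with limma 3.58.1 (lmFit, eBayes defaults), and p-values were adjusted by Benjamini-Hochberg across the whole table of 22203 probes, with adjusted p under 0.05 as the threshold. There were 3 residual and 7.92 prior degrees of freedom. The fit called 315 probes higher and 7 lower, and was tested on simulated data. The 95% intervals are per gene and unadjusted. Pairs of genes used the same prior, that of single probes, on within-tumour differences, so their intervals may be too narrow. Promoters come from RefSeq windows of GRCm38.p6, while the files name no build.

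The members and lists were chosen with earlier results of these data known. Named were all 10 genes, up to 4 genes of each pathway list and 3 of each marker list with the smallest unadjusted p, and the genes nearest in profile; others are said to be picked out after their values were seen. A list described by its counts got no test. Alternatives were other normalizations, prior settings, filters, probe rules and thresholds, a melanocyte covariate, an ordinary linear model and leaving out each tumour.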

Additional observations from a re-analysis of the deposited data

How the results depend on the processing

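With 3 RG7112 and 2 vehicle tumours, the calls rest on few arrays and on the variance that limma shares across probes. All 10 genes kept their direction in the 17 alternatives, and Tlr9, Unc93b1, Irf5 and Pld3 were called in none. Direction could change only under array weights, another normalization, the covariate or the loss of a tumour. The intensity trend, robust prior, dim filter, probe rules, thresholds and ordinary linear model left each difference as it was. Of the 10 genes, 5 were called under an intensity trend, a robust prior, array weights, quantile normalization, a filter on dim probes, either probe rule, adjusted p under 0.10 and a minimum of 1.5-fold. The looser threshold could not end a call. With 1 probe per gene, the probe rules changed only the table around the 10 genes. Cyclic loess left 4 (Tlr8 at adjusted p 0.0540). With the melanocyte covariate, 3 of the 10 genes were called, 162 probes, against 322, and 13 genes of the other lists, against 21. It ended the calls of Tlr8 (adjusted p 0.110) and Myd88 (0.479). It also gave differences of 1.19 for Tlr3, 2.22 for Tlr13, 0.45 for Tlr9, 0.29 for Irf5 and 0.54 for Irf7. An ordinary linear model per probe, which drops the shared variance, called 0 of the 10 genes, 0 probes and 0 other-list genes, with 5, 1613 and 42 at an unadjusted p under 0.05. Leaving out 1 tumour gave 1 to 5 of the 10 genes, 65 to 273 probes and 3 to 24 other-list genes, where 1 of the 10 was called without vehicle tumour 3, 1 without vehicle tumour 4, and 2 without RG7112 tumour 2. A lone vehicle tumour is assumed to vary like the RG7112 tumours. Over the pairs, 21 of 45 were called with the prior variance doubled, an alternative chosen after seeing the data, against 25, and the pairs lost were Tlr8 with Unc93b1, Tlr13 with Pld4, Tlr13 with Irf5 and Myd88 with Irf5. The melanocyte marker Trpm1 reversed under the melanocyte covariate, of which it is part (-0.29, against 0.23). Where no construction is named, the cause was not tested. No paired analysis was possible because the groups share fewer than 2 replicate numbers.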
